A study of Rattus norvegicus with 40 samples.

Results

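The microRNAs (miRNAs) described here are the blood vessel miRNAs miR-126a, miR-143 and miR-145 of rat plasma. They were taken by name, as every row of the deposited read counts that begins with miR-126a, miR-143 or miR-145 and carries any arm suffix, which gave 6 of 752 miRNAs. Of these, 5 had reads (rno-miR-126a-3p, rno-miR-143-3p, rno-miR-143-5p, rno-miR-145-5p and rno-miR-145-3p, written below without the prefix rno-), out of 581 miRNAs with at least 1 read in the whole data set. The sixth, miR-126a-5p, had 0 reads in all 40 libraries. Plasma came from the tail vein of 20 adult male Sprague-Dawley rats and was sampled in each rat on D2 and D9 after lateral fluid-percussion injury (TBI), a pressure pulse onto the exposed brain surface, or after a sham operation. The groups were 4 sham rats, 7 TBI rats that later had epilepsy (TBIE in the labels, TBI+ here) and 9 TBI rats without epilepsy (TBIN, TBI− here). Epilepsy was judged from video-EEG recorded in the sixth month, so on D2 and D9 the outcome lay ahead. Plasma aliquots of 1 rat and 1 day were pooled before extraction, and each rat and day gave 1 library. Plasma holds RNA from many tissues, so more releasing cells and more RNA released per cell cannot be told apart.

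A miRNA hairpin is cut into a 5p and a 3p arm, and bases 2 to 8 of the arm that is loaded, its seed, pair with target mRNAs. miR-126 lies inside the gene Egfl7, is enriched in endothelial cells and platelets, and is known for its part in vascular integrity and growth. miR-143 and miR-145 are neighbouring hairpins made from 1 primary transcript, are most abundant in vascular smooth muscle and are known for keeping that muscle in its contractile state. In RefSeq (GRCr8) both of these rat hairpins lie on the same strand within the noncoding gene Carmn, also called Mir143hg. The counts were made on the older build Rno6, so no positions are given.

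The mature sequences of the 6 miRNAs, from RefSeq (GRCr8), are shown because arms of 1 hairpin and neighbours of 1 transcript are compared throughout. The capitals mark the seed.
miR-126a-3p: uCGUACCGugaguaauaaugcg
miR-126a-5p: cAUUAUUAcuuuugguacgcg
miR-143-3p: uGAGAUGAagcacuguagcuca
miR-143-5p: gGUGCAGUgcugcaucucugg
miR-145-5p: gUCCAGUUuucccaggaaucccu
miR-145-3p: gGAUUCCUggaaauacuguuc
The 6 seeds differed from each other, and none was found in any other of the 685 miRNAs of the counts that had a mature sequence in RefSeq. Their mature lengths were between 21 and 23 bases, and counts per 1000000 reads of a library (CPM) were not corrected for length. Whether the library preparation captured different miRNAs equally well was not tested, so levels of different members are compared as reads only.

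The hairpins of the pair show where the arms sit, with both mature arms in capitals.
Mir143: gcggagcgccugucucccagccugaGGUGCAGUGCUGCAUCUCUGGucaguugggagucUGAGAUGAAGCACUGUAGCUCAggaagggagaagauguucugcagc
Mir145: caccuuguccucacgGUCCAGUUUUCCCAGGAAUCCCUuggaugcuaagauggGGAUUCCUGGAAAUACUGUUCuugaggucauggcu

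The 0 reads of miR-126a-5p were shared by miR-126b, whose mature sequence lies on the opposite strand.
miR-126a-5p: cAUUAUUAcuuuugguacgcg
miR-126b: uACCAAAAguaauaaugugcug
In RefSeq these 2 mature sequences overlap by 17 bases. Among the 685 miRNAs matched to RefSeq, 92 overlapped another counted miRNA on the opposite strand, and 84 of them (91.3%) had 0 reads in all libraries. Of the 593 without such an overlap, 70 (11.8%) had 0 reads. Whether the authors' counting used the strand of a read is not given in the sources used here, and the part of this overlap in the 0 reads was not tested. The 0 of miR-126a-5p is therefore given only as listed at 0.

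Library totals, the sums of reads over all miRNAs, ranged from 404542 to 2562083 on D2 and from 140636 to 2864893 on D9. The D9 sham libraries were the shallowest, between 140636 and 358202 reads. In those libraries 3 reads, the floor used here, amounted to 8.38 to 21.3 CPM, and in the D9 libraries of TBI rats to 1.05 to 9.03 CPM. Intervals and floors cover counting error only. The library numbers in the titles fall into 3 separate runs. All sham rats had their D2 library in the first run and their D9 library in the third, and what a run stands for is not given in the sources used here.

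The most abundant of these miRNAs was rno-miR-143-3p, with 1317901 reads in all. It took 3.75% of reads on D2 (mean of 20 libraries), which made it the sixth most abundant of 565 miRNAs, and 2.07% on D9 (rank 15 of 541). rno-miR-126a-3p held 93577 reads in all and moved from rank 56 on D2 to rank 43 on D9. rno-miR-145-5p held 20030 reads and moved from rank 75 to rank 124. rno-miR-145-3p, its partner arm, held 6969 reads. rno-miR-143-5p, the minor arm of miR-143, held 262 reads, which was between 0 and 25 in each library.

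Comparisons were made with the quasi-likelihood test of edgeR, and p-values were adjusted over all miRNAs with reads (Benjamini-Hochberg). A miRNA was called at an adjusted p under 0.05. TBI rats were compared with sham rats to ask whether injury moved vascular miRNAs in plasma. On D2 none of the 5 was called in TBI vs. sham, where 35 of 565 miRNAs (6.19%) were, none in TBI+ vs. sham (3.19% of all), and none in TBI− vs. sham (6.19%). On D9 none was called in TBI vs. sham (3.51% of 541 miRNAs), TBI+ vs. sham (1.85%) or TBI− vs. sham (4.81%). These D9 shares rest on 1 library: without sham rat 2, edgeR called 0 of 541 miRNAs in each of the 3, against 19, 10 and 26 with it, and 70, 75 and 63 had an unadjusted p under 0.05. Between TBI+ and TBI− rats, the comparison that bears on later epilepsy, 0.0% of all miRNAs were called on D2 and 0.0% on D9. At an unadjusted p under 0.05 there were 38 and 22 miRNAs, and DESeq2 called 0 on both days. Over the 8 comparisons within a day, 4 of the 40 tests of a member had an unadjusted p under 0.05, 3 of them of miR-143-5p against sham on D9 and 1 of miR-145-5p between TBI+ and TBI− on D2. Over 106 fits under all settings, DESeq2 among them, the number of calls of a member was 0, with a lowest adjusted p of 0.0926. Some of the D9 fits left miR-143-5p untested. DESeq2 gave it no adjusted p in TBI vs. sham, and the count filter filterByExpr left it out of every D9 comparison.

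**Figure D1:**
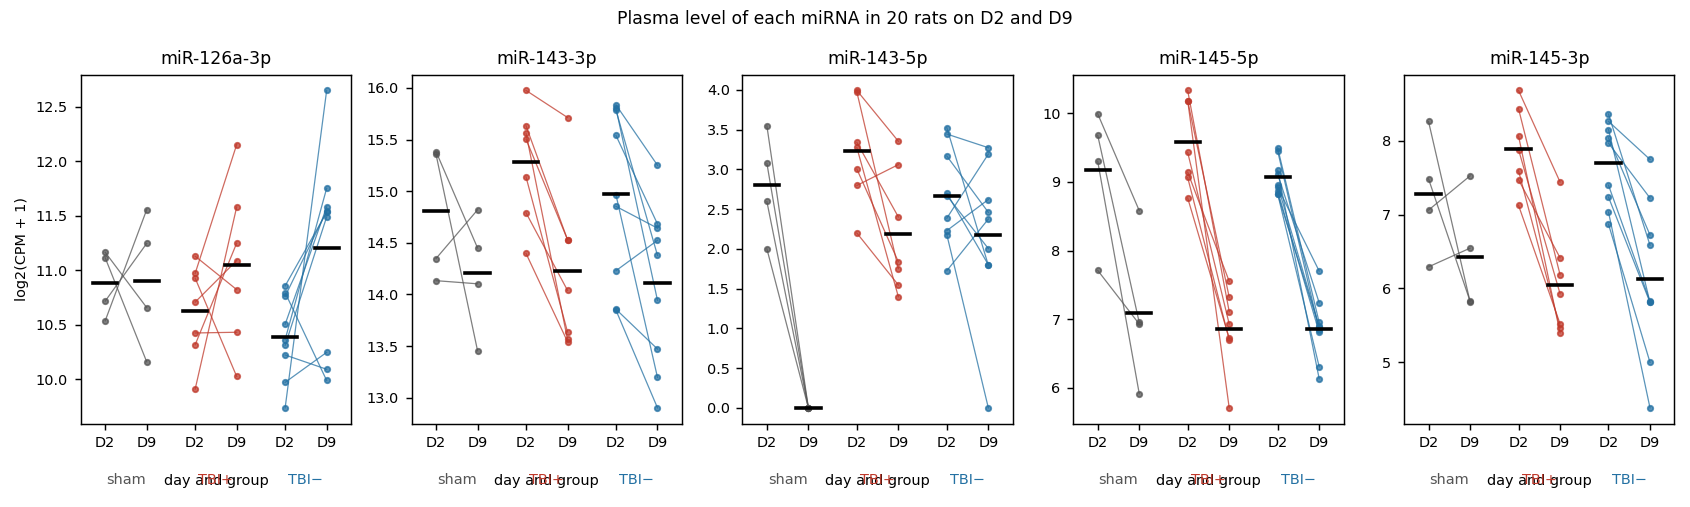
Level of each miRNA as log2(CPM + 1) on the y axis, on D2 and D9 in sham, TBI+ and TBI− rats on the x axis. Each point is 1 library, lines join the 2 libraries of a rat and black bars are group means. The lines of miR-145-5p point down in all 20 rats, and the groups overlap on each day.

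miR-126a-3p, the endothelial miRNA, was measured at 1684, 2298, 1486 and 2219 CPM in sham rats 1 to 4 on D2. In TBI+ rats it lay between 962 and 2241 CPM (median 1674) and in TBI− rats between 854 and 1856 CPM (median 1319). The groups overlapped, and the log2 fold change of TBI vs. sham was −0.26 (SE 0.20, edgeR, adjusted p = 0.473). On D9 the sham rats had 2432, 1616, 3014 and 1145 CPM. TBI+ rats had between 1043 and 4559 CPM (median 2181) and TBI− rats between 1016 and 6434 CPM (median 2964). The spread was wider than on D2 in both. The SD was 55.7% of the mean against 27.3% in TBI rats and 40.6% against 20.7% in sham rats. The D9 log2 fold change was 0.46 (SE 0.39, adjusted p = 0.666 by edgeR). Its 95% interval, from the SE and the normal distribution, ran from −0.31 to 1.23.

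miR-143-3p, the major arm of miR-143, had 17973, 41935, 20850 and 42746 CPM in sham rats 1 to 4 on D2. TBI+ rats lay between 21585 and 64427 CPM (median 46458) and TBI− rats between 14740 and 58476 CPM (median 31964). The lowest TBI rat was below all sham rats and the highest above them, and the log2 fold change of TBI vs. sham was 0.44 (SE 0.34, edgeR, adjusted p = 0.482). On D9 the sham rats had 17599, 11232, 28907 and 22381 CPM, TBI+ rats between 11933 and 53714 (median 16837), and TBI− rats between 7655 and 38981 (median 21293). The groups again overlapped, with a log2 fold change of 0.16 (SE 0.36, edgeR, adjusted p = 0.859).

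miR-145-5p, the major arm of miR-145, had 209, 1018, 630 and 819 CPM in sham rats 1 to 4 on D2. TBI+ rats had between 435 and 1289 CPM (median 689) and TBI− rats between 452 and 722 CPM (median 494). Sham rat 1 was below every TBI rat, the other sham rats were within their range, and the log2 fold change of TBI vs. sham was 0.07 (SE 0.30, edgeR, adjusted p = 0.930). Between TBI+ and TBI− rats the D2 means were 834 ± 357 CPM (SD, n = 7) and 545 ± 103.5 CPM (SD, n = 9). The log2 fold change was 0.53 (SE 0.25, edgeR, adjusted p = 0.694), so it did not pass the correction over 565 miRNAs. The difference moved with the runs of library numbers. The first run held 4 TBI+ libraries, at 1160, 1289, 1164 and 435 CPM, and no TBI− library. In the second run, which held both groups, TBI+ rats had 689, 564 and 535 CPM and TBI− rats between 454 and 722 CPM. With the run as a term the log2 fold change was 0.027 (SE 0.35, edgeR, adjusted p = 1). On D9 the sham rats had 121, 382, 59.4 and 123 CPM, TBI+ rats between 51.3 and 187 (median 121), and TBI− rats between 69.2 and 207 (median 117.4). Sham rat 2 was above all TBI rats. Its D9 library stood apart from the other sham libraries, with miR-24-3p at 53601 CPM. The log2 fold change of TBI vs. sham was −0.36 (SE 0.36, edgeR, adjusted p = 0.742), and without sham rat 2 it was 0.28.

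miR-145-3p, the lesser arm of miR-145, had 77.4, 306, 132.5 and 177.9 CPM in sham rats 1 to 4 on D2. TBI+ rats lay between 138.7 and 410 CPM (median 235) and TBI− rats between 116 and 328 CPM (median 249), with a log2 fold change of TBI vs. sham of 0.51 (SE 0.32, edgeR, adjusted p = 0.418). On D9 the sham rats had 92.4, 55.5, 183 and 55.8 CPM, TBI+ rats between 41.2 and 173 (median 60.0), and TBI− rats between 19.9 and 214 (median 55.7). The groups overlapped on both days, and the D9 log2 fold change was −0.16 (SE 0.46, edgeR, adjusted p = 0.885).

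miR-143-5p, the minor arm, was sparse. On D2 the sham rats had 3, 14, 5 and 4 reads, or 5.05, 10.7, 7.45 and 3.00 CPM. TBI rats had between 3 and 25 reads, with a median of 6.49 CPM, and the log2 fold change of TBI vs. sham was 0.22 (SE 0.46, edgeR, adjusted p = 0.841). On D9 all 4 sham libraries had 0 reads, and 15 of the 16 TBI rats had between 1 and 12. The sham libraries summed to 863022 reads, and a count of 0 in that total allows up to 3.48 CPM. The TBI mean was 4.25 ± 2.76 CPM (SD, n = 16), and every library of both groups that had reads had 12 or fewer. The TBI mean was 1.22 times that limit. This ratio leaves out the spread between rats, so it is not a lower bound of the fold. The comparison did not pass the adjustment (edgeR, adjusted p = 0.176), and the floor of each single sham library, at least 8.38 CPM, lay above the TBI mean.

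The median log2 fold change over all miRNAs moved with the scaling. In TBI vs. sham on D9 it was 0.30 with TMM scaling, 0.12 with RLE, 0.18 with library totals and 0.09 with miR-28-3p, the reference miRNA of the study. Relative to the 0.30 with TMM scaling, miR-126a-3p was above the median miRNA, and miR-143-3p, miR-145-5p and miR-145-3p were below it. The fitted value of miR-143-5p was also above it, but all D9 sham libraries had 0 reads of this miRNA. The 0.30 is over 541 miRNAs, sparse ones among them. The median was −0.04 over the 275 left by the count filter filterByExpr, −0.06 with libraries thinned to the smallest total and −0.38 with DESeq2. The place of a member relative to the median is therefore not read as a change.

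**Figure D2:**
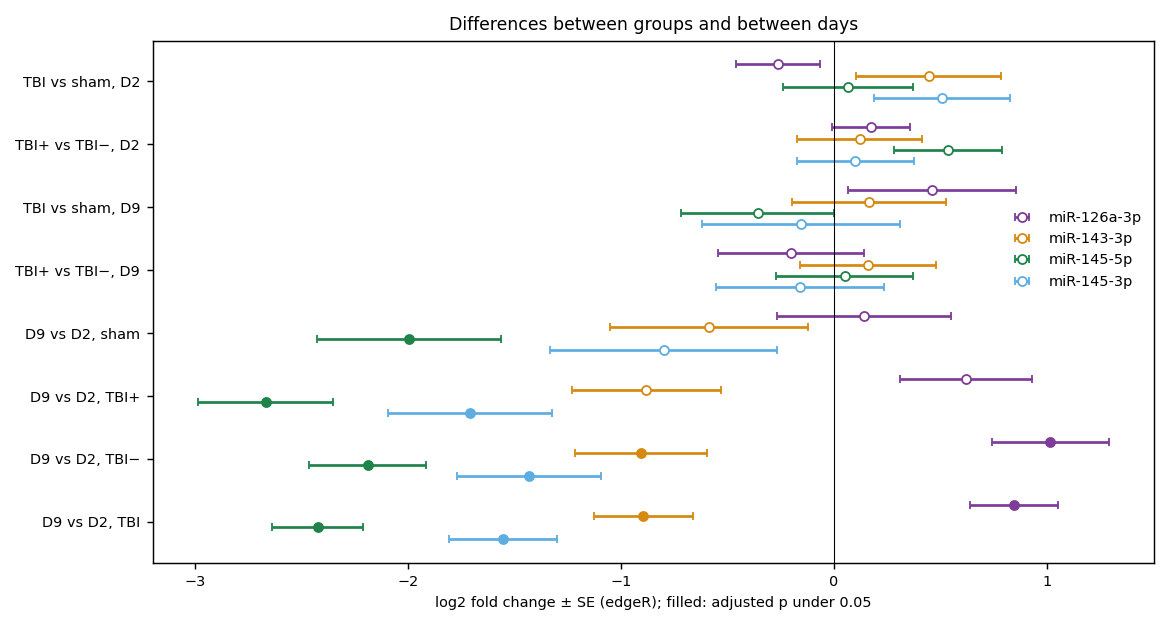
Log2 fold change (x axis) with its SE of 4 members in 8 comparisons (y axis). Filled points were called at an adjusted p under 0.05. No point within a day is filled, and miR-145-5p has filled points between −1.99 and −2.67 in the 4 comparisons of D9 with D2.

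The comparison of D9 with D2 asked how the levels moved with time after the operation. In the 16 TBI rats 4 of the 5 members were called (80.0%), against 186 of 581 miRNAs (32.0%) overall. The 581 include many sparse miRNAs. Among the 332 miRNAs left by the count filter filterByExpr, 168 (50.6%) were called, and every member was. miR-145-5p, miR-145-3p and miR-143-3p fell and miR-126a-3p rose, while 18.1% of all miRNAs fell and 13.9% rose. In TBI+ rats 2 members were called, both lower (16.0% of all called, 11.2% lower), and in TBI− rats 4 members (20.1% of all called), 3 lower (12.9% of all) and 1 higher (7.23% of all). In the 4 sham rats 1 member was called, miR-145-5p, which fell (6.71% of all called, 3.79% lower). Without sham rat 2 it was still called, and the calls over all miRNAs went from 39 of 581 to 2 of 580, both lower. Without sham rat 3 they were 14 of 581. The difference between the TBI change and the sham change was called for none of the 5, against 3.79% of all miRNAs (22, and between 8 and 12 when any 1 sham rat was left out).

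In TBI rats miR-145-5p had the largest change of the 5. It fell from 671 ± 280 CPM on D2 to 122 ± 40.4 CPM on D9 (SD, n = 16). The lowest D2 value, 435 CPM, was above the highest D9 value, 207 CPM, which held for 6 of 581 miRNAs (1.03%). The log2 fold change was −2.42 (SE 0.21, edgeR, adjusted p = 4.49e-13), a 5.36-fold lower level. Its p ranked second of 581 miRNAs and its log2 fold change 16 from the lowest. Within the rats, the D2 level was between 2.34 and 22.7 times the D9 level, with a median of 5.44, and it was lower on D9 in all 16.

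The sham rats moved the same way. Their miR-145-5p fell from 669 ± 345 to 171.4 ± 143.7 CPM (SD, n = 4), and the D2 level was 1.73, 2.66, 10.6 and 6.67 times the D9 level in sham rats 1 to 4. With the TBI rats this made 20 of 20 rats with a lower D9 value, which held for 10 of 581 miRNAs (1.72%). The sham log2 fold change was −1.99 (SE 0.43, edgeR, adjusted p = 0.00318). The difference of the TBI and sham changes was −0.43 on the log2 scale (SE 0.47, edgeR, adjusted p = 0.803), with a 95% interval from −1.35 to 0.49, so the fall was measured in both and a difference between them was not. The D9 sham values rest on 12 to 62 reads per library.

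miR-145-3p, from the same hairpin, fell in TBI rats from 235 ± 86.4 to 81.1 ± 54.4 CPM (SD, n = 16), lower on D9 in 16 of 16 rats. The log2 fold change was −1.55 (SE 0.26, edgeR, adjusted p = 4.29e-06). In sham rats it was lower in 2 of 4, with a log2 fold change of −0.80 (SE 0.53, edgeR, adjusted p = 0.464). miR-143-3p fell in TBI rats from 39127 ± 16618 to 20907 ± 11953 CPM (SD, n = 16), lower in 15 of 16 rats, with a log2 fold change of −0.89 (SE 0.23, edgeR, adjusted p = 0.00219). In TBI− rats it was −0.91 (SE 0.31, edgeR, adjusted p = 0.0285). In TBI+ rats the log2 fold change was −0.88 (SE 0.35, edgeR, adjusted p = 0.0756), lower in 7 of 7 rats, and with the rat as a block it was −0.99 (adjusted p = 0.00108). The sham value was −0.59 (SE 0.46, edgeR, adjusted p = 0.577), lower in 3 of 4 rats. The sparse miR-143-5p was lower in 12 of 16 TBI rats, with −0.73 (SE 0.33, edgeR, adjusted p = 0.0862), and it was called with DESeq2 (adjusted p = 0.0344) and with a count filter (filterByExpr, adjusted p = 0.0446).

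**Figure D3:**
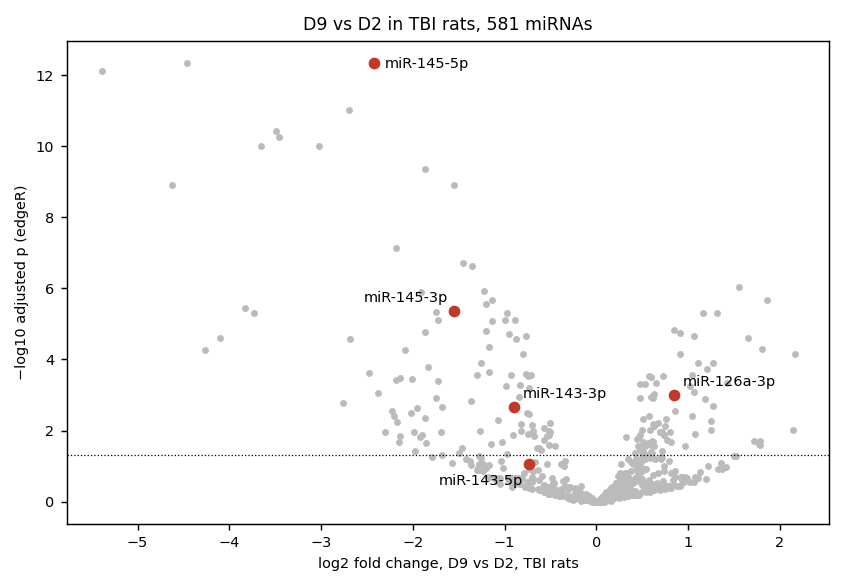
Log2 fold change of D9 vs. D2 in 16 TBI rats (x axis) against −log10 of the edgeR adjusted p (y axis), 1 point for each of 581 miRNAs, with the 5 members in red and the threshold of 0.05 dotted. miR-145-5p sits at −2.42 near the top, and miR-126a-3p at 0.84 is the member on the right.

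miR-126a-3p went the other way. In TBI rats it rose from 1497 ± 408 to 2599 ± 1449 CPM (SD, n = 16), higher on D9 in 12 of 16 rats, with a log2 fold change of 0.84 (SE 0.21, edgeR, adjusted p = 0.00103). In TBI− rats it was 1.02 (SE 0.27, edgeR, adjusted p = 0.00535), higher in 7 of 9. In TBI+ rats it was 0.62 (SE 0.31, edgeR, adjusted p = 0.159), higher in 5 of 7, and in sham rats 0.14 (SE 0.41, edgeR, adjusted p = 0.985), higher in 2 of 4. The difference between the TBI and sham changes was 0.70 (SE 0.46, edgeR, adjusted p = 0.495).

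The rise of miR-126a-3p moved with the runs of library numbers. Among the 8 rats whose D2 library was in the first run and D9 library in the third (all 4 sham and 4 TBI+), it was higher on D9 in 4. In the 7 rats that went from the second run to the first (3 TBI+ and 4 TBI−) it was higher in 7, by between 1.60 and 7.53 times. In the 3 rats that went from the third to the second it was higher in 2. miR-145-5p was lower on D9 under every order of runs, in 8 of 8, 7 of 7 and 3 of 3 of these rats and in the other two. With the run as a term in the edgeR fit, chosen after the data were seen, the TBI change of miR-126a-3p was 0.66 (adjusted p = 0.0102) and that of miR-145-5p was −2.47 (adjusted p = 3.17e-14). The TBI− changes of miR-126a-3p (0.57, adjusted p = 0.291) and miR-143-3p (−0.99, adjusted p = 0.0634) and the sham fall of miR-145-5p (−1.49, adjusted p = 0.0717) were then no longer called by edgeR. For the sham rats alone, day and run cannot be told apart.

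**Figure D4:**
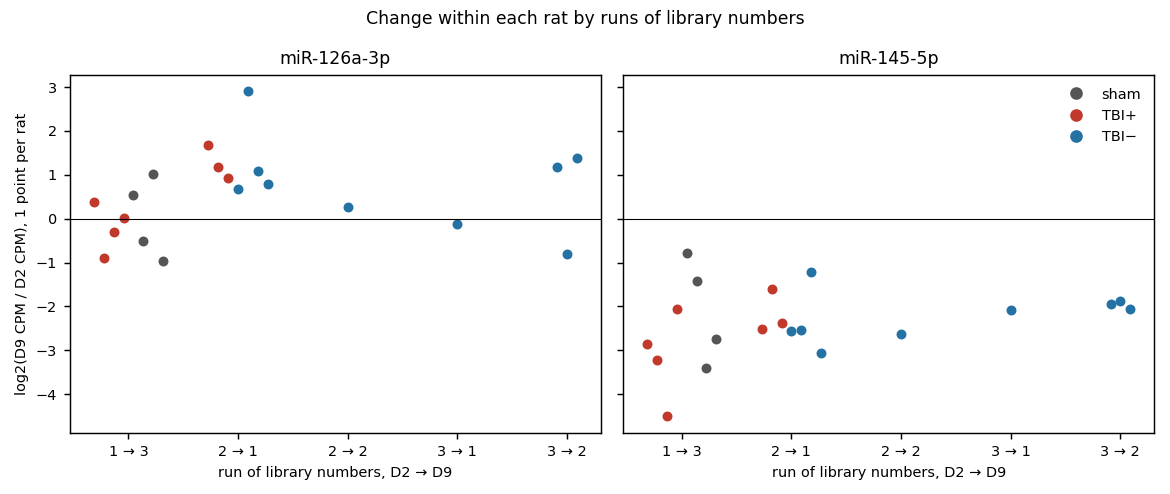
Log2 ratio of D9 to D2 CPM (y axis) of miR-126a-3p and miR-145-5p, 1 point per rat, by the runs of library numbers of its D2 and D9 libraries (x axis) and coloured by group. miR-145-5p is below 0 in all 20 rats, and miR-126a-3p is above 0 in 7 of 7 rats from run 2 to run 1 and in 4 of 8 from run 1 to run 3.

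Markers of blood cells moved with the day as well in TBI rats. The red cell index, the log2 ratio of miR-451-5p, a red cell miRNA, to miR-23a-3p, was higher on D9 in 16 of 16 TBI and 4 of 4 sham rats, with mean changes of 1.55 and 1.65. miR-451-5p went from 3343 ± 1475 to 5874 ± 3173 CPM in TBI rats (SD, n = 16) and from 2783 ± 916 to 3133 ± 1394 CPM in sham rats (SD, n = 4), and miR-23a-3p from 3734 ± 598 to 2205 ± 662 CPM and from 3860 ± 511 to 1515 ± 860 CPM. With this index as a covariate the calls over all miRNAs in TBI rats went from 186 to 46 of 581. The index rose with the day in every rat, so this fit cannot fully tell the index and the day apart. The denominator of the index, miR-23a-3p, is also on the endothelial list used below. In sham rats its fall moved the index more than miR-451-5p did. Over the 40 libraries miR-23a-3p had a Spearman's rho of 0.83 with miR-145-5p, so the index is not independent of that member. Of the members miR-145-5p was still called, at −2.26 (edgeR, adjusted p = 7.74e-07). The changes of miR-145-3p (−0.97, adjusted p = 0.118), miR-143-3p (−0.43, adjusted p = 0.597) and miR-126a-3p (0.77, adjusted p = 0.133) were not called by edgeR. Over the 16 TBI rats within a day, the index was tested against miR-126a-3p, miR-143-3p and miR-145-5p, and none of these 6 correlations passed the adjustment. For miR-126a-3p, Pearson's r was 0.28 on D2 (rho = 0.31) and −0.16 on D9 (rho = −0.24; permutation test, adjusted p = 0.625 and 0.776).

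Of the 4 measured red cell markers (of 5 listed), 4 rose in TBI rats from D2 to D9, and their summed level went from a median of 24824 CPM (10781 to 48279) to 41702 CPM (17910 to 74325). Of 5 platelet markers, miR-126a-3p among them, 3 rose, and their sum went from a median of 48843 CPM (26288 to 76165) to 65628 CPM (37660 to 81794). Of 6 leukocyte markers 4 rose, from a summed median of 33555 CPM (13467 to 51809) to 43829 CPM (18315 to 63498). Of all 581 miRNAs 13.9% rose and 18.1% fell in TBI rats, and of the 332 left by filterByExpr 50.6% were called. In sham rats the summed medians on D2 and D9 were 24597 and 27396 CPM for red cell, 54476 and 52973 for platelet and 57161 and 33730 for leukocyte markers, with 0, 1 and 1 marker called higher. Without sham rat 2, 0 of 580 miRNAs were called higher in this comparison, so these marker calls rest on 1 rat. In TBI vs. sham 0 of the red cell markers, 1 of the platelet markers (lower on D9) and 2 of the leukocyte markers (1 lower on D2, 1 lower on D9) were called. Over all miRNAs 6.19% were called on D2 and 3.51% on D9. Of 4 skeletal muscle markers 2 had reads, with a summed median of 298 CPM on D2 and 48.5 CPM on D9 in TBI rats, and miR-1-3p was listed at 0. Of these 2, 1 fell in TBI rats, and 0 were called in sham rats or in TBI vs. sham. The liver marker miR-122-5p was also listed at 0. The part of these cells in the changes of the vascular miRNAs was not tested.

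Ratios within a library do not depend on its total where both miRNAs have ample reads. A small constant was added to each count. Where a miRNA has few or no reads, as miR-143-5p in the D9 sham libraries, the ratio therefore varies with depth. In all, 4 ratios were tested in 3 comparisons, with the 12 p-values adjusted by Benjamini-Hochberg. The 5p arm of miR-145 outnumbered its 3p arm on D2, with a median ratio of reads of 2.80 in TBI rats (1.48 to 5.54) and 2.68, 3.33, 4.73 and 4.60 in sham rats 1 to 4. On D9 the median in TBI rats was 2.05 (0.371 to 6.03), and the sham rats had 1.30, 6.58, 0.333 and 2.17. The mean log2 ratio of TBI rats was 0.73 lower on D9, lower in 11 of 16 rats (exact sign-flip permutation test, two-sided, adjusted p = 0.0195). Both arms come from 1 hairpin, and they fell by unequal amounts in these rats.

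miR-143-3p and miR-145-5p, which share a primary transcript, also moved by unequal amounts. The median ratio of miR-143-3p to miR-145-5p reads in TBI rats was 56.6 on D2 (26.6 to 129) and 148 on D9 (62.4 to 489). The log2 ratio was higher on D9 in 15 of 16 rats, by a mean of 1.49 (exact sign-flip permutation test, two-sided, adjusted p = 0.000732). In sham rats it was 85.8, 41.2, 33.1 and 52.2 on D2 and 141, 29.1, 467 and 180 on D9, higher in 3 of 4. miR-126a-3p gained on miR-143-3p in 16 of 16 TBI rats. miR-143-3p had a median of 21.6 times the reads of miR-126a-3p on D2 and 8.24 times on D9, a mean change of 1.59 in the log2 ratio of miR-126a-3p to miR-143-3p (exact sign-flip permutation test, two-sided, adjusted p = 0.000366). The p before adjustment, 3.05e-05, is the smallest that 16 rats allow.

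The arm ratio of miR-143 was far more one-sided, with a median of 5135 reads of the 3p arm for each read of the 5p arm in TBI rats on D2 and 5022 on D9 (0.5 added to each count). It was higher on D9 in 6 of 16 rats, with a mean change of −0.10 on the log2 scale (exact sign-flip permutation test, two-sided, adjusted p = 0.813). Between TBI and sham rats a difference was called for none of the 4 ratios on either day. For miR-143 on D9 the sham ratios, 4951, 3643, 11683 and 16035, come from 0 reads of the 5p arm and the 0.5 added. That test therefore cannot tell whether the arm ratio differed. The 8 exact permutation tests gave adjusted p-values between 0.406 and 0.864.

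**Figure D5:**
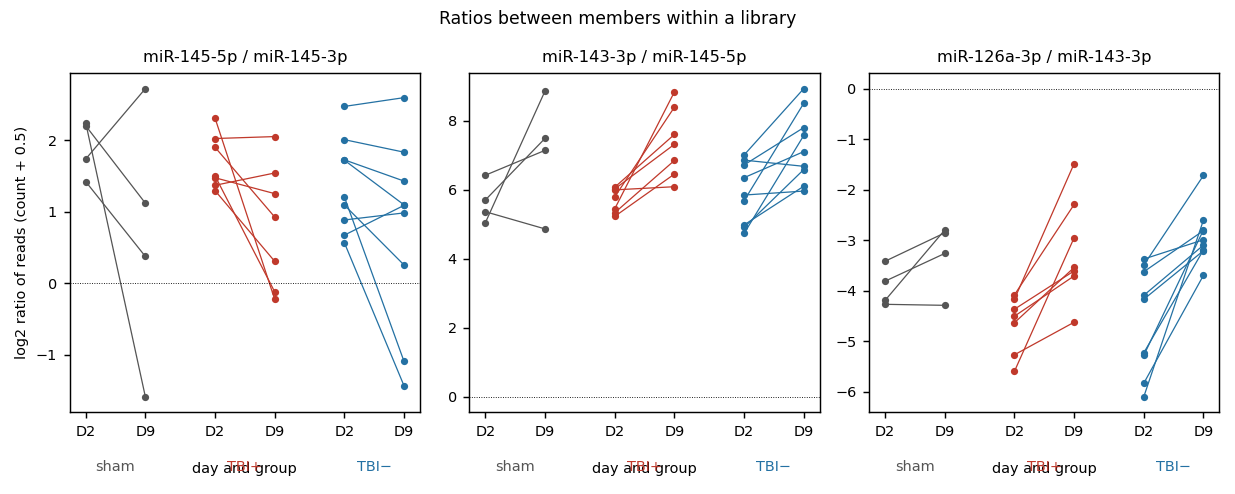
Log2 ratio of the reads of 2 members in a library (y axis, 0.5 added to each count) on D2 and D9 in sham, TBI+ and TBI− rats (x axis), with lines joining the libraries of a rat. The miR-143-3p to miR-145-5p ratio is higher on D9 in 15 of 16 TBI rats and the miR-126a-3p to miR-143-3p ratio in 16 of 16.

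Relations across the 16 TBI rats were tested in 19 pairs on log2(CPM + 1), by permutation tests with 100000 resamples and Benjamini-Hochberg adjustment. The level of miR-145-3p on D2 was correlated with its level on D9 (r = 0.72, adjusted p = 0.0172; rho = 0.66, adjusted p = 0.0635; permutation tests). For miR-145-5p it was not (r = −0.09, adjusted p = 0.821; rho = 0.17, adjusted p = 0.657; permutation tests). For miR-143-3p r was 0.62 (adjusted p = 0.0726; rho = 0.61, adjusted p = 0.0908), and for miR-126a-3p it was −0.22 (adjusted p = 0.716; rho = −0.18, adjusted p = 0.657; permutation tests). The arms of miR-143 were correlated on D2 (r = 0.74, adjusted p = 0.0172; rho = 0.74, adjusted p = 0.0355; permutation tests). On D9 r was 0.53 (adjusted p = 0.148; rho = 0.48, adjusted p = 0.228; permutation tests). Without the 2 rats farthest from the median, r was 0.58 for miR-145-3p between the days (adjusted p = 0.289) and 0.59 for the arms of miR-143 on D2 (adjusted p = 0.289; permutation tests). Neither passed the adjustment over the 14 rats left. Within a day, miR-143-3p and miR-145-5p had r = 0.40 on D2 (adjusted p = 0.324; rho = 0.29) and r = −0.19 on D9 (adjusted p = 0.747; rho = −0.15; permutation tests).

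The miRNAs most alike in pattern were sought among the other miRNAs with at least 10 reads in at least 36 libraries, by Spearman's rho of TMM-scaled log2(CPM + 1) over 40 libraries. The libraries come in pairs from 20 rats and 2 days, so rho within the 20 libraries of a day stands beside it, and no test is given. For miR-145-5p the highest rho was 0.83 with miR-23b-3p (0.53 within D2 and 0.27 within D9), then 0.83 with miR-23a-3p (0.55 and 0.25) and 0.77 with miR-99b-5p (0.28 and 0.09). For miR-143-3p they were miR-378b (0.69, 0.67 within D2 and 0.55 within D9), miR-100-5p (0.64, 0.42 and 0.45) and miR-99a-5p (0.63, 0.42 and 0.44). For miR-126a-3p they were miR-34c-5p (0.61, 0.31 and 0.65), miR-30c-2-3p (0.57, −0.08 and 0.86) and miR-142-3p (0.56, 0.25 and 0.45).

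Other miRNAs linked to vessels were counted from 2 lists, with the same threshold for a call. Of 21 endothelial miRNAs, 18 had reads. In TBI vs. sham 1 was higher and 1 lower on D2, and 1 was higher and 2 lower on D9. Over all miRNAs 6.19% were called in TBI vs. sham on D2 and 3.51% on D9. Without sham rat 2 the D9 counts in TBI vs. sham were 0 for this and every other list, as no miRNA was called. From D2 to D9 in TBI rats 3 rose and 6 fell, with a median log2 fold change of −0.01 against 0.06 over all miRNAs. Of all 581 miRNAs 13.9% rose and 18.1% fell, and of the 332 left by filterByExpr 50.6% were called, so these counts are not read as a trait of the list. Of 13 miRNAs of smooth muscle and other mural cells, 3 of which are on both lists, 11 had reads. In TBI vs. sham 0 were higher and 1 lower on D2, and 1 was higher and 1 lower on D9. From D2 to D9 in TBI rats 1 rose and 4 fell, with a median of −0.12. In sham rats 1 endothelial miRNA rose and 3 fell between the days, and 1 and 2 of the smooth muscle list (6.71% of all miRNAs called). Without sham rat 2, 2 miRNAs in all were called in that comparison, miR-145-5p among them.

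By name, miR-132-3p, a miRNA of growing endothelium and of neurons, was higher in TBI than in sham rats on D2 (log2 fold change 1.30, SE 0.29, edgeR, adjusted p = 0.00392). miR-222-3p, of the endothelium and of smooth muscle, was lower on D2 (−0.74, SE 0.19, edgeR, adjusted p = 0.0124) and higher on D9 (1.33, SE 0.38, edgeR, adjusted p = 0.0414). Its D2 call was lost without sham rat 2 (adjusted p = 0.0602) or 3 (adjusted p = 0.0744), and its D9 call without sham rat 1, 2 or 3 (adjusted p = 0.183, 0.0968 and 0.142, edgeR). miR-24-3p, made with miR-23, was lower on D9 (−4.15, SE 0.53, edgeR, adjusted p = 2.42e-06), and so was miR-146a-5p of the leukocyte list (−2.13, SE 0.44, edgeR, adjusted p = 0.00213). Without sham rat 2 these were −0.18 (adjusted p = 0.877) and 0.02 (adjusted p = 0.967). With the run of library numbers as a term, miR-24-3p was still called (adjusted p = 0.00360), and miR-132-3p (adjusted p = 0.106), miR-146a-5p (adjusted p = 0.304) and miR-222-3p on D2 (adjusted p = 0.402) and D9 (adjusted p = 0.786) were not called by edgeR.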

How the data were processed

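Small RNA libraries were made with the TruSeq Small RNA kit from plasma RNA and sequenced by the authors on an Illumina HiSeq. Per the labels and the study's methods, reads were quality-checked (FastQC 11.8), trimmed (Trimmomatic 0.36), merged over both flow cells, aligned to Rno6 with Bowtie2 and assigned to miRBase miRNAs with featureCounts. The authors deposited these read counts without normalization. Local alignment and counting by annotated position cannot separate near-identical or overlapping miRNAs.

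Counts were scaled to 1000000 reads of their library for CPM. Groups were compared within a day, and days within a group, by the quasi-likelihood test of edgeR (4.0.16, in R 4.3.3) with TMM scaling and Benjamini-Hochberg adjustment over all miRNAs with reads, tested on simulated data. Ratios and correlations used permutation tests (scipy 1.17.1). Alternatives were DESeq2 1.42.0, other scalings, filterByExpr, thinning, blocks, the red cell index as covariate, left-out sham rats and the run of library numbers. All rows of the 3 miRNA names are described, and from the vascular and blood cell lists at most 4 called miRNAs are named. The members and lists were chosen with earlier results of these data known.

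Libraries of the same rat pair D2 with D9. Over 274 miRNAs, deviations of the libraries of a rat correlated above 0.1 in 4 of 20 rats (median −0.06), and the main fits have no block. No 2 libraries were identical, and n counts rats.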

Additional observations from a re-analysis of the deposited data

Results flagged for a closer look

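Values of the 5 members with reads were checked for a rat far from the rest of its group and day, by the gap to its nearest neighbour as a share of the group's range (Dixon's 95% limit). Chance gives about 1 such group in 20, and 3 were found in 29 groups. miR-143-3p was at 53714 CPM in TBI+ rat 1 on D9, where the other 6 rats lay between 11933 and 23682 CPM. miR-145-3p was at 173 CPM in the same library, with the others between 41.2 and 84.4 CPM. miR-126a-3p was at 6434 CPM in TBI− rat 2 on D9, with the others between 1016 and 3452 CPM.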

How the results depend on the processing

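No member was called in any comparison within a day under any alternative that gave it an adjusted p. The log2 differences given first are of members or ratios that were not called in either fit. Leaving out sham rat 1, 2, 3 or 4 in turn turned the sign of several TBI vs. sham ratios. On D2 the miR-143-3p to miR-143-5p ratio ranged from −0.049 to 0.72 and the miR-143-3p to miR-145-5p ratio from −0.019 to 0.44. On D9 the miR-145-5p to miR-145-3p ratio ranged from −0.62 to 0.81, the miR-143-3p to miR-145-5p ratio from −0.53 to 0.80 and the miR-126a-3p to miR-143-3p ratio from −0.049 to 0.45. In single members, the TBI vs. sham log2 fold change then ranged from −0.060 to 0.69 for miR-143-5p and from −0.25 to 0.39 for miR-145-5p on D2. On D9 it ranged from −0.18 to 0.35 for miR-143-3p, from −0.65 to 0.28 for miR-145-5p and from −0.52 to 0.32 for miR-145-3p. The sham change of miR-126a-3p from D2 to D9 ranged from −0.25 to 0.46. The difference of the TBI and sham changes ranged from −0.63 to 0.12 for miR-143-3p and from −0.72 to 0.090 for miR-145-5p. Within the run of the sham libraries (sham and TBI+ rats only) the miR-143-3p to miR-143-5p ratio was −0.073 and the miR-143-3p to miR-145-5p ratio −0.011 on D2. The miR-145-5p to miR-145-3p ratio was −0.43 and the miR-126a-3p to miR-143-3p ratio −0.57 on D9. With 1 added to each count in place of 0.5, the miR-143-3p to miR-143-5p ratio on D9 was 0.093. For miR-143-3p in TBI vs. sham on D9 DESeq2 gave −0.015, RLE scaling −0.015 and thinning −0.050. With the run of library numbers as a term, TBI vs. sham on D9 was −0.26 for miR-126a-3p and 0.13 for miR-145-3p, and the difference of the TBI and sham changes was −0.20 for miR-126a-3p. In D9 vs. D2, the number of called members in sham rats (1) was 0 with miR-28-3p scaling and with the run term, and 2 with filterByExpr. It was 1 in TBI, TBI+ and TBI− rats with the red cell index as covariate, and 2 in TBI− rats with the run term. The calls over all 581 miRNAs dropped as well, with the index from 32.0% to 7.92% in TBI, from 16.0% to 4.99% in TBI+ and from 20.1% to 5.34% in TBI− rats, and with the run term to 10.2% in TBI− rats. With the index miR-143-5p was 0.12 in TBI and 0.40 in TBI− rats. The fall of miR-145-5p in TBI, TBI+ and TBI− rats was called under all 9 alternatives, and the log2 fold change in TBI rats lay between −2.63 and −2.26. Without the 2 rats farthest from the median, the number of correlations called (2) was 0, and r between the days was 0.088 for miR-126a-3p and 0.25 for miR-145-5p. For miR-126a-3p with miR-145-5p on D9 it was 0.13, and 0.056 with TMM-scaled CPM. The causes of these changes were not tested.

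With the rat as a block, 4 members were called in TBI, 3 in TBI+, 4 in TBI− and 1 in sham rats, and 27.9%, 13.4%, 17.7% and 4.82% of all 581 miRNAs. Same-numbered rats of different groups share only a number (a correlation above 0.1 in 8 of 30 pairs, median −0.04), and that block called 0 members in each comparison within a day, and 3 of 565 miRNAs in TBI+ vs. TBI− on D2 (0 without it). In that fit miR-145-3p in TBI vs. sham on D9 was 0.31. Leaving out sham rat 1 took the calls over all miRNAs on D2 from 35 to 21 in TBI vs. sham and from 18 to 11 in TBI+ vs. sham. The depth of the D9 sham libraries limits what can be said of miR-143-5p.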
